A study of Homo sapiens with 6 samples.

Results

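Integrins and the proteins of focal adhesions were followed in AC16 cells with and without exposure to fine airborne particulate matter (PM2.5). The group was chosen by gene symbol. It holds the 26 integrin subunit genes (18 alpha, 8 beta) and 12 genes of adhesion plaque proteins, 38 of the 22465 genes measured with a symbol of their own. AC16 is an established human line labelled as a myocardial cell line, made by fusing ventricular cardiomyocytes with transformed fibroblasts. Affymetrix arrays were hybridised with RNA of cells treated with PM2.5 at 50 µg/mL for 24 h (3 arrays) and of control cells (3 arrays), and each group is called biological replicates in the titles. No allele or second agent is named for either group, the controls' medium or vehicle is not described, and all arrays come from 1 line. Whether the replicates were grown separately is not stated, and the p-values therefore reflect the spread of these 6 arrays, which may be technical. Values are the deposited log2 expression values, and the number of arrays limits their precision. On arrays of bulk RNA, a smaller share of expressing cells and less RNA per cell cannot be told apart.

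Integrins are surface receptors, each a pair of 1 alpha and 1 beta subunit, that bind the extracellular matrix outside the cell and, through talin and kindlin, the actin cytoskeleton inside. The sites where they cluster are focal adhesions. There vinculin strengthens the link to actin, the ILK, PINCH and parvin proteins form a scaffold, and focal adhesion kinase and paxillin pass signals on. In the heart, the same proteins anchor myocytes at costameres and carry mechanical load.

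The arrays differed in a way the treatment does not explain, and this bears on every result below. They fell into 2 sets by the mean log2 signal of 8 probe sets for added control RNA (spike-ins). The low spike-in set, with means of 10.2 to 10.3, holds PM2.5 replicates 2 and 3 with control replicate 3. The high spike-in set, with means of 10.7 to 10.9, holds PM2.5 replicate 1 with control replicates 1 and 2. The labels name no batch, and the sets are not groups of the study. Whether gene differences between them arose in the cells or in the handling of the arrays was not tested. Above background means a reading over 5.66, the highest of any background probe set, on at least 3 arrays. A gene that did not was not shown to be silent. Of 11 measured cardiomyocyte markers, 1 was above background, the myosin light chain gene MYL2, while the sarcomere genes MYH6, MYH7, TNNI3 and ACTN2 stayed below it. Of 11 fibroblast markers, 4 were above background (VIM, COL1A1, COL1A2 and PDGFRB), of 9 epithelial markers 2 (KRT8 and KRT18), of 9 leukocyte markers 1 (CD68), and of 8 endothelial and 6 platelet markers 0.

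Promoter sequences are shown for 4 of the genes that the results turn on: VCL and ITGB1, which read higher on the low spike-in arrays, and TGFB1I1 and ZYX, whose means lay the other way. Each is 300 bases from RefSeq on GRCh38.p14, 250 before and 50 after the annotated gene start, 5′ to 3′ on the gene's strand. They lie at chr10:73997866-73998165 (plus strand), chr10:32958181-32958480 (minus), chr16:31471902-31472201 (plus) and chr7:143381095-143381394 (plus), in the order below. Capitals mark GC boxes, the hexamer GGGCGG on either strand, a sequence bound by SP1 family factors.
VCL: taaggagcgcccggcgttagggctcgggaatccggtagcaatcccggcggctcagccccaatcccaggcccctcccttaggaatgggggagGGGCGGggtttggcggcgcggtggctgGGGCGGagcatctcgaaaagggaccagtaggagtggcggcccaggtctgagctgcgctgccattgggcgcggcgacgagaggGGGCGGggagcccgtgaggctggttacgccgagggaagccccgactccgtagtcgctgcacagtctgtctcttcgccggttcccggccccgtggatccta
ITGB1: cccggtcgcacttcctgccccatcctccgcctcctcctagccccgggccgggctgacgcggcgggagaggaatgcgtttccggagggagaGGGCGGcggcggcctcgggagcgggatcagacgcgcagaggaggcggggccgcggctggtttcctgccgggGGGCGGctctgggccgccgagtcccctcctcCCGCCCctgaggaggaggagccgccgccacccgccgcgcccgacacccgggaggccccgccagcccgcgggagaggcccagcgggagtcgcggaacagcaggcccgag
TGFB1I1: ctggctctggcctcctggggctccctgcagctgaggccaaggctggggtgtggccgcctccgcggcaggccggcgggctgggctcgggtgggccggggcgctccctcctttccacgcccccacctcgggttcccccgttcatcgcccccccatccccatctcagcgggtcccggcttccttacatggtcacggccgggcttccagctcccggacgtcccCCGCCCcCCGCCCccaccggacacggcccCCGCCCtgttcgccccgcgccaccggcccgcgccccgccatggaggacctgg
ZYX: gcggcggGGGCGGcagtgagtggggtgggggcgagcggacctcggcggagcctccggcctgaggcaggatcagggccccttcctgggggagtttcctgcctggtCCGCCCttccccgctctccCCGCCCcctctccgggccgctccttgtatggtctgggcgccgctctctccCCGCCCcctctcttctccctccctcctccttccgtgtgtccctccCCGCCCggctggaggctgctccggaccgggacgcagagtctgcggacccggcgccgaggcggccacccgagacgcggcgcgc
The first 3 hold 3 GC boxes each and ZYX holds 5. Of the 38 genes, 27 had a promoter in the RefSeq table, and 17 of these 27 held a GC box, against 45.0% of 35116 promoters of that length. The 27 were rich in G and C, with a median of 70.3% against 58.7% over all promoters. The core pentamer of the aryl hydrocarbon receptor element, GCGTG on either strand, was in 13 of the 27, TGFB1I1 among them, and in 36.5% of all. The 2 motifs shared bases in 2 of the 27. A match describes these letters only and shows no binding.

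AC16 RNA gave signal above background for 12 of the 38 genes (31.6%), against 18.5% of all genes. Among the integrins these were 5 of 26: the alpha subunits ITGA3 and ITGA5 and the beta subunits ITGB1, ITGB3 and ITGB5. Among the plaque proteins they were 7 of 12: TLN1, VCL, ILK, PARVA, PXN, TGFB1I1 and ZYX. ITGB3 lay just inside, with 5.71 on the lowest of its 3 highest arrays, and ITGA6 just outside, with 5.63. ITGB3 exceeded the threshold on the 3 low spike-in arrays only. With each array's own highest background probe set as the threshold, 19 genes passed, adding ITGA6, ITGAV, ITGA11, FERMT2, LIMS1, TNS1 and BCAR1.

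None of the 38 genes passed the test of PM2.5 against control. By limma's moderated test over all genes, 0 of 38 passed at an adjusted p under 0.05, against 0% of all 22465 genes, and the adjusted p was 1 for each of the 38. At an unadjusted p under 0.05 there were 0 of the 38 and 473 of all genes. For 0 of 38 did the 3 PM2.5 arrays lie apart from the 3 control arrays, against 5.31% of all genes and 3.28% of those above background. The median log2 difference, PM2.5 minus control, was 0.0025 over the 38 and -0.0099 over all genes. Of the 38, 19 were higher in the mean and 19 lower. A fit with array set as a blocking term also gave 0 of 38, the lowest adjusted p being 0.862 for ITGB1.

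**Figure D1:**
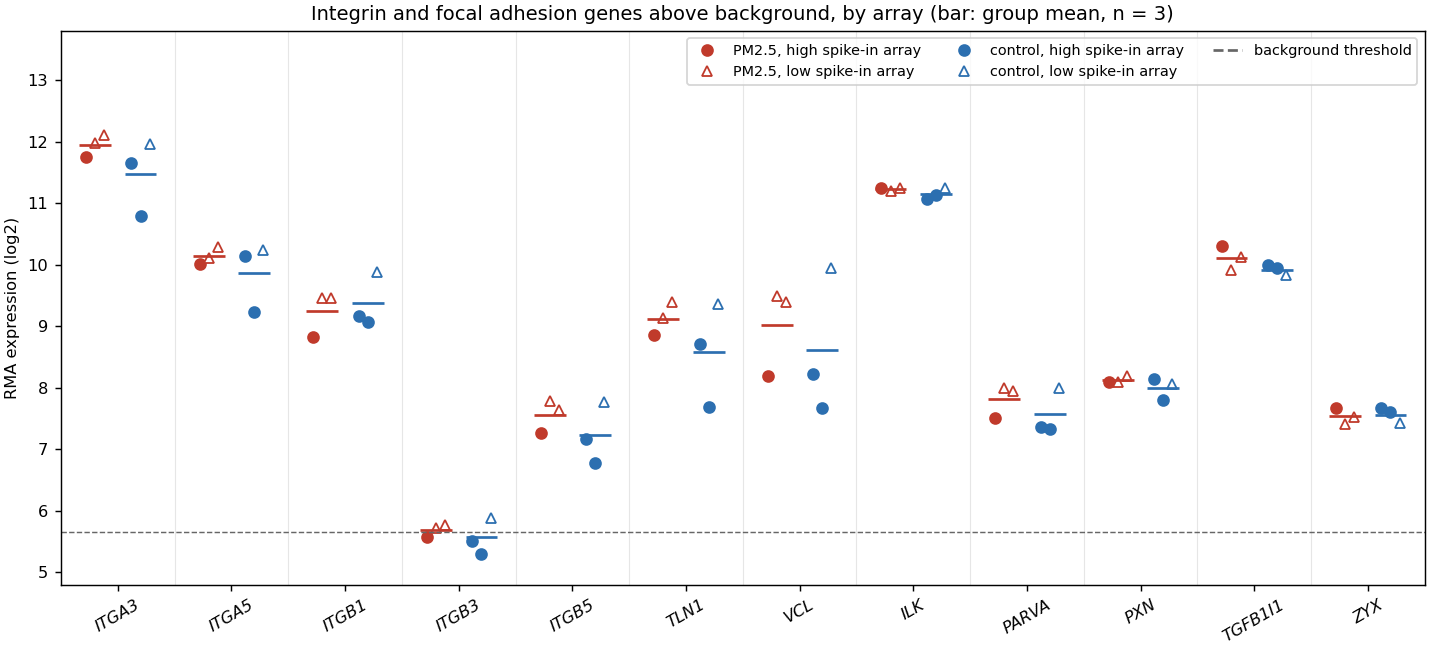
RMA expression (log2) of the 12 genes above background on each array, PM2.5 left and control right within a gene, with the mean of 3 arrays as a bar. Filled circles are high and open triangles low spike-in arrays, and the dashed line is the background threshold of 5.66. The PM2.5 and control arrays overlap for each of the 12 genes, and VCL runs from 7.67 to 9.95.

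ITGA3 encodes the alpha subunit of a laminin receptor. It read 11.76, 11.98 and 12.11 on PM2.5 replicates 1 to 3, against 11.66, 10.80 and 11.97 on control replicates 1 to 3. Control replicate 2 lay well below the other 5 arrays, while control replicate 3 reached into the PM2.5 range. The means were 11.95 ± 0.18 with PM2.5 and 11.48 ± 0.61 in controls (SD, n = 3 each), a log2 difference of 0.47 (95% interval -0.33 to 1.27). Its unadjusted p in limma, the lowest of the 38 genes, was 0.204. Without control replicate 2 the difference was 0.13, and without control replicate 3 it was 0.71.

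The other laminin-binding subunits lay near the threshold or below it. ITGA6 read 5.50, 5.74 and 5.63 with PM2.5, against 5.63, 5.39 and 5.87 in controls, a log2 difference of -0.0040 (SE 0.14). ITGA7, the laminin receptor subunit of differentiated muscle, read 3.96 to 3.98 with PM2.5 and 3.94 to 4.09 in controls.

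ITGA5 pairs with ITGB1 to form the main fibronectin receptor. It read 10.01, 10.12 and 10.30 with PM2.5, against 10.14, 9.23 and 10.25 in controls. Again only control replicate 2 was low, and the other 5 arrays spanned 10.01 to 10.30. The log2 difference of 0.27 (95% interval -0.50 to 1.04) became -0.05 without that array and 0.46 without control replicate 3.

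ITGB1, the beta subunit shared by most matrix-binding integrins, was the 1 integrin above background with a lower mean after PM2.5. It read 8.83, 9.46 and 9.46 on PM2.5 replicates 1 to 3, against 9.17, 9.07 and 9.89 on control replicates 1 to 3. PM2.5 replicate 1 was the lowest array and control replicate 3 the highest. The means were 9.25 ± 0.37 with PM2.5 and 9.38 ± 0.45 in controls (SD, n = 3 each), a log2 difference of -0.13 (95% interval -0.89 to 0.64). Within both array sets its mean was lower with PM2.5, the log2 difference being -0.30 in the high and -0.43 in the low set. Blocking on the array set gave -0.36 (SE 0.11, limma unadjusted p = 0.018, adjusted p = 0.862). It was the only one of the 38 genes with an unadjusted p under 0.05 in that fit, where 1293 of all genes had one. Without control replicate 3 the plain difference was 0.13. The table holds 2 further transcript clusters named ITGB1 on which no array exceeded the threshold, at 3.58 to 4.17.

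ITGB5 and ITGB3 pair with ITGAV in vitronectin receptors. ITGB5 read 7.26, 7.78 and 7.64 with PM2.5, against 7.17, 6.78 and 7.78 in controls. Its log2 difference was 0.32 (95% interval -0.39 to 1.04). The difference was 0.09 without control replicate 2 and 0.59 without control replicate 3. ITGB3 read 5.57, 5.71 and 5.78 with PM2.5, against 5.51, 5.30 and 5.89 in controls, a log2 difference of 0.12 (SE 0.16). ITGAV itself, at 5.15 to 5.55 with PM2.5 and 5.14 to 5.41 in controls, did not reach the threshold on any array.

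The remaining integrin genes were not above background. Collagen receptor subunits ITGA1, ITGA2, ITGA10 and ITGA11 had log2 differences of -0.0072, 0.04, 0.01 and -0.0082. ITGA11 stood out by its spread, with 4.88, 5.17 and 5.14 in PM2.5, against 4.84, 4.77 and 5.60 in controls. A separate cluster annotated to both ITGA1 and PELO read 5.31 to 5.41 with PM2.5 and 5.29 to 5.55 in controls and names neither gene. The subunits of white blood cells (ITGAL, ITGAM, ITGAX, ITGAD, ITGAE, ITGB2 and ITGB7), which mark cells the line should not hold, read 3.85 to 4.54 over all arrays. The platelet subunit ITGA2B read 4.13 to 4.27, and ITGA4 and ITGA9, receptors for VCAM1 and tenascin, read 3.83 to 4.09. The RGD-binding subunit ITGA8 and the subunits ITGB4, ITGB6 and ITGB8, best known from epithelia and brain, read 3.83 to 4.18. Over all 26 genes of the group that were not above background, the log2 difference lay between -0.07 (ITGA9) and 0.09 (ITGAV).

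TLN1 encodes talin, which binds the beta tail and switches integrins to the active state. It read 8.86, 9.13 and 9.39 with PM2.5, against 8.72, 7.69 and 9.36 in controls. The log2 difference of 0.54, the highest of the 38 in size, had a 95% interval of -0.54 to 1.62. Control replicate 2 lay well below the other 5 arrays, and without it the difference was 0.08. Without control replicate 3 the difference was 0.92. FERMT2, the kindlin that acts with talin, was not above background (4.99 ± 0.040 with PM2.5 and 5.05 ± 0.12 in controls, SD, n = 3 each).

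VCL, vinculin, varied most over the arrays. It read 8.20, 9.50 and 9.40 on PM2.5 replicates 1 to 3, against 8.23, 7.67 and 9.95 on control replicates 1 to 3. The low spike-in arrays were the 3 high ones, in both groups. The means were 9.03 ± 0.72 with PM2.5 and 8.62 ± 1.19 in controls (SD, n = 3 each), so that the log2 difference of 0.41 came with a 95% interval of -1.22 to 2.05. It was -0.06 without control replicate 2, 1.08 without control replicate 3, and -0.13 (SE 0.24) after blocking on array set.

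ILK encodes the pseudokinase at the centre of the scaffold. It read 11.25, 11.21 and 11.25 with PM2.5, against 11.07, 11.13 and 11.25 in controls. PM2.5 replicates 1 and 3 and control replicate 3 held the same value to all deposited digits, the highest of the gene. How steady the gene was cannot be read from such a repeated top value. PARVA, alpha-parvin, which links ILK to actin, read 7.51, 8.01 and 7.95 with PM2.5, against 7.37, 7.34 and 8.01 in controls, a log2 difference of 0.25 (95% interval -0.36 to 0.87). Its 3 high arrays were again those of the low spike-in set. LIMS1, which encodes PINCH1 of the same complex, was not above background (log2 difference 0.01, SE 0.08).

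Among docking and signalling proteins, only the gene of paxillin was above background. PXN read 8.10, 8.10 and 8.19 with PM2.5, against 8.15, 7.80 and 8.06 in controls, a log2 difference of 0.12 (95% interval -0.27 to 0.52). PTK2, the focal adhesion kinase, read 4.61 to 4.70 with PM2.5 and 4.63 to 4.78 in controls. BCAR1, the p130Cas docking protein, read 4.91 to 4.99 with PM2.5 and 4.94 to 5.08 in controls.

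TGFB1I1, which encodes the paxillin relative HIC5, had the highest share of its sum of squares between PM2.5 and control among the 12 genes above background, 38.8%. It read 10.31, 9.92 and 10.14 on PM2.5 replicates 1 to 3, against 9.99, 9.94 and 9.83 on control replicates 1 to 3. PM2.5 replicate 2 lay below control replicates 1 and 2, so the groups overlapped. The means were 10.12 ± 0.20 with PM2.5 and 9.92 ± 0.085 in controls (SD, n = 3 each). The gene was higher with PM2.5 within both sets, by a log2 difference of 0.34 in the high and 0.20 in the low set, and with the set as a block by 0.27 (SE 0.12, limma adjusted p = 0.868). ZYX, zyxin, a sensor of tension at actin fibres, read 7.68, 7.42 and 7.54 with PM2.5, against 7.68, 7.60 and 7.42 in controls, a log2 difference of -0.02 (SE 0.15). TNS1, tensin, had a log2 difference of 0.06 (SE 0.07) and was not above background.

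**Figure D2:**
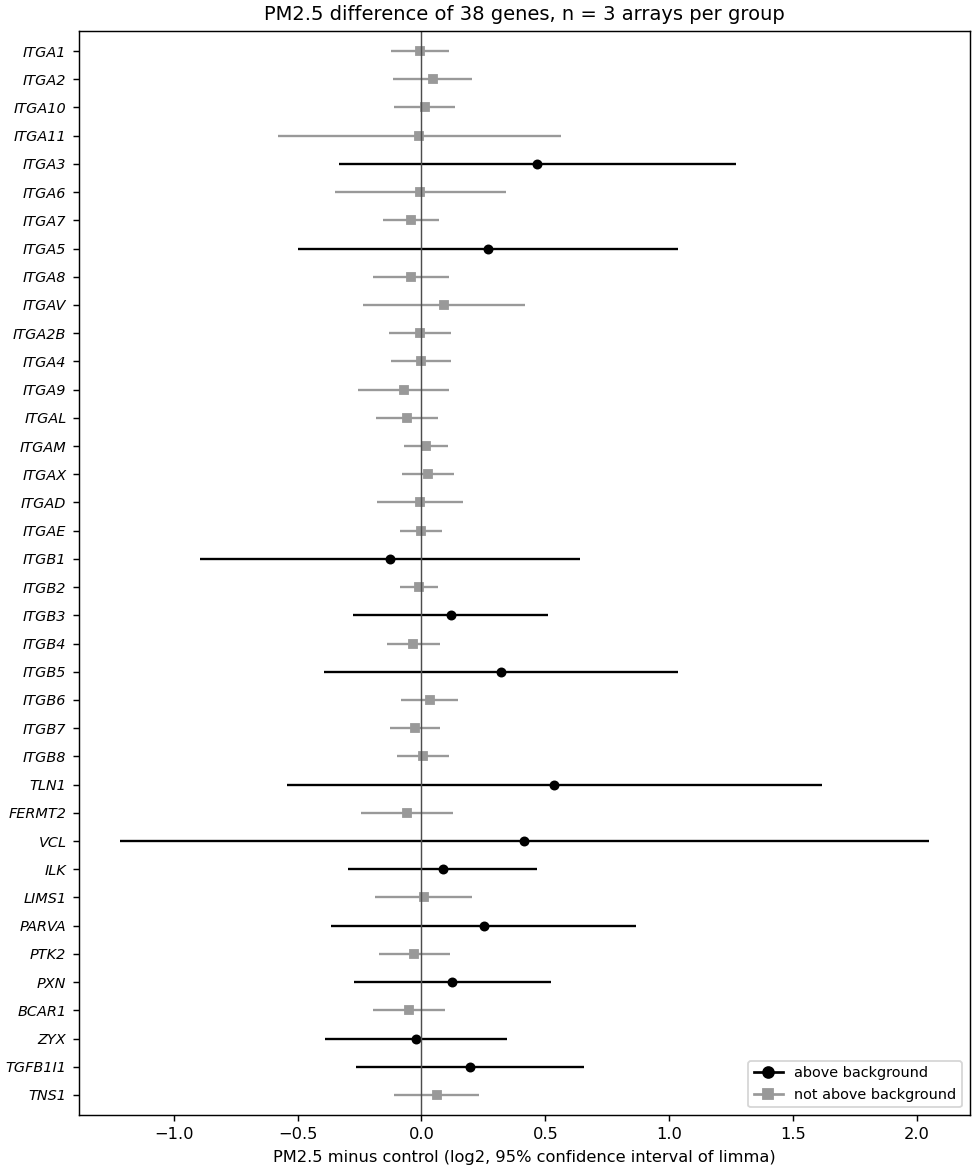
Log2 difference, PM2.5 minus control, of all 38 genes with the 95% confidence interval from limma (n = 3 arrays per group), ordered by role. Black circles are genes above background and grey squares the others, and the interval of each gene includes 0, being widest for VCL at -1.22 to 2.05.

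These differences moved with single control arrays. Control replicate 2 was the lowest array for 8 of the 12 genes above background, against 43.0% of all genes above background, and control replicate 3 the highest for 4 of 12, against 50.1%. ILK, whose highest value control replicate 3 shared with PM2.5 replicates 1 and 3, is not among the 4. Of the 12, 10 had a higher mean with PM2.5, against 2280 of all 4150 genes above background. The median log2 difference of 0.22 stood beside 0.01 over all genes above background. Without control replicate 2 the median of the 12 was 0.05 with 7 higher, beside -0.05 and 1266 of 4150 over all genes above background. Without control replicate 3 it was 0.37 with 11 higher, beside 0.11 and 2694 of 4150. With the array set as a block it was 0.08 with 10 higher, beside -0.05 and 1494 of 4150. The genes above background as a whole thus shifted with the same arrays. The 12 genes share their arrays and are not replicates of each other.

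Within the array sets the PM2.5 difference often pointed both ways. In the high set (1 PM2.5 against 2 control arrays) 11 of the 12 genes were higher with PM2.5, and in the low set (2 against 1) 4 were. Over all 4150 genes above background, 2280 were higher with PM2.5 in the high set and 1070 in the low set. The sign was opposite in 7 of the 12, against 49.5% of all genes above background. ILK, with its repeated top value, is among these 7. For TLN1 the log2 difference was 0.66 in the high and -0.10 in the low set, and for VCL 0.25 and -0.50. The sign was the same in both sets for ITGA3, PXN, TGFB1I1 and ZYX, higher, and for ITGB1, lower. Differences within a set carry no error. In a test of the difference between the sets (limma, interaction term) 0 of the 38 genes passed, the lowest adjusted p being 0.765, with 2 of the 38 and 1448 of all genes at an unadjusted p under 0.05, and 0 of all genes passed.

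**Figure D3:**
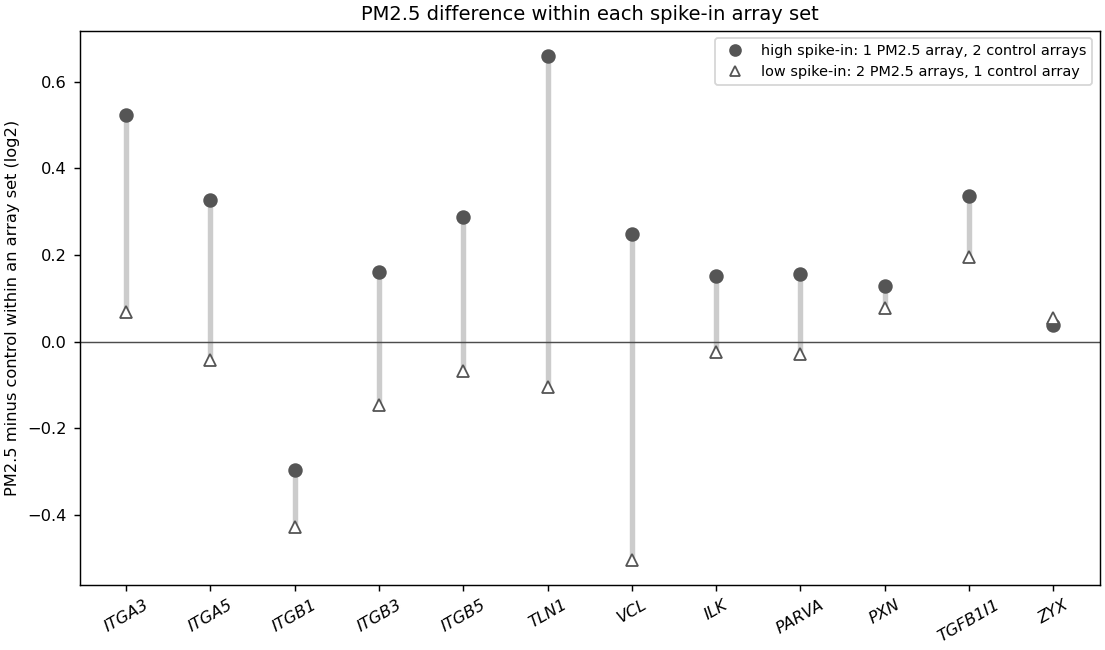
Log2 difference, PM2.5 minus control, within the high (filled circles) and the low (open triangles) spike-in arrays, for the 12 genes above background. A grey bar joins the values of a gene, and ITGB1 is the gene below 0 in both sets.

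Between the array sets several adhesion genes differed. In a limma fit with treatment in the model, low minus high spike-in arrays, 3 of 38 genes passed as higher, against 5.40% of all genes, and 0 as lower, against 2.65%. The 3 were above background, 3 of 12 there, where 20.4% of such genes passed as higher. Their number stood near the share over all genes above background. VCL read 9.61 ± 0.29 on low and 8.03 ± 0.32 on high spike-in arrays (SD, n = 3 each), a 3.08-fold difference (log2 1.63, SE 0.24, limma adjusted p = 0.0308). ITGB1 read 9.61 ± 0.25 on low and 9.02 ± 0.18 on high arrays (log2 0.70, SE 0.11, limma adjusted p = 0.0312). PARVA read 7.99 ± 0.031 on low and 7.41 ± 0.092 on high arrays (log2 0.56, SE 0.097, limma adjusted p = 0.0377). For each of the 3, all low arrays lay above all high arrays.

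Further genes had sets that did not overlap but did not pass. Among the 12 above background, 7 lay apart in the higher direction, against 45.3% of all genes above background. VCL, ITGB1 and PARVA, which passed, are among the 7. In the lower direction 1 lay apart, ZYX, against 18.7%. ITGB3, among the 7, exceeded the background threshold on the low spike-in arrays only, so it had to lie higher there, and the shares over all genes admit genes in the same way. The count is a description and nothing is read from it. ITGB5 had a log2 difference of 0.63 (limma adjusted p = 0.0727) and TLN1 of 0.78 (adjusted p = 0.199), low minus high. ITGA11, not above background, had 0.54 (adjusted p = 0.0611). TGFB1I1 and ZYX each read -0.21 (limma adjusted p = 0.285 and 0.198), and for TGFB1I1 the sets overlapped. Of the sum of squares of the 12 genes over the arrays, a median of 65.1% lay between the array sets, near the 68.1% of all genes above background. Between PM2.5 and control lay a median of 18.5%, against 6.37%. The 2 shares were each computed alone and overlap, since the sets hold PM2.5 and control arrays unevenly. The 18.5% is therefore not a share apart from the array set. The share between the sets reached 96.4% for PARVA and 91.0% for VCL, and was 14.9% for TGFB1I1 and 15.2% for PXN.

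These set differences depended on scaling and on single arrays. Genes above background read higher on low spike-in arrays by a median log2 value of 0.17, which a further quantile normalization moved to -0.0035. Under it VCL passed (log2 1.32, adjusted p = 0.0240) and ITGB1 (0.44) and PARVA (0.22) did not, ZYX passed as lower (log2 -0.52, limma adjusted p = 0.0485), and ILK and PXN changed sign. Centring the arrays gave 4 genes, all higher, and a split of calls over all genes of 1969 higher and 502 lower, beside 1214 higher and 596 lower without it. With treatment left out of the model ITGB1 lost its call (log2 0.58, limma adjusted p = 0.0762), VCL and PARVA passed, and ITGB5 (adjusted p = 0.0421) and, as lower, ITGA9 (log2 -0.17, adjusted p = 0.0441) passed too. The call of ITGB1 thus rests on the treatment term. Leaving out any 1 array left 0 of the 38 called, except that VCL passed without control replicate 2 (log2 1.45, adjusted p = 0.0432). Calls over all genes fell too with 1 array left out, to between 0 and 605 higher and between 1 and 254 lower. The loss of calls was thus not particular to the 38 genes.

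**Figure D4:**
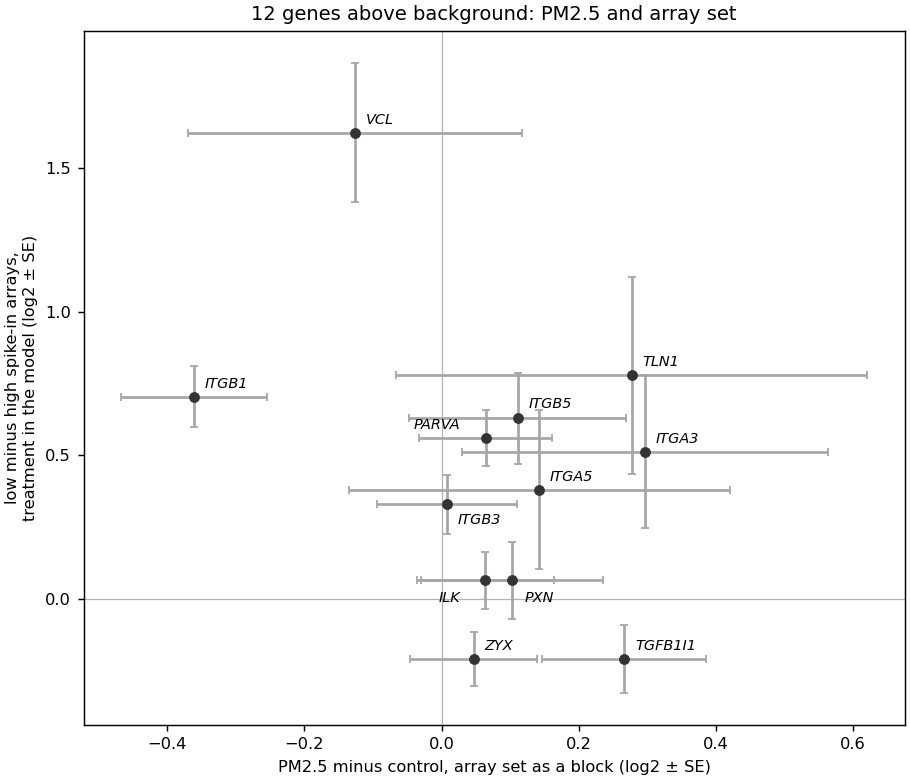
For the 12 genes above background, the PM2.5 minus control difference after blocking on array set (horizontal) and the low minus high spike-in difference with treatment in the model (vertical), log2 with standard errors. VCL, at 1.63, and ITGB1 and PARVA passed limma's test on the vertical axis, and 0 genes did on the horizontal one.

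Other genes of the same machinery, from lists of further focal adhesion proteins and of integrin ligands, were set beside them. Of 89 measured, 37 were above background, and 0 of the 89 passed limma's test of PM2.5 against control in either direction, beside 0% of all genes. The median log2 difference was 0.02 over 55 focal adhesion genes and 0.02 over 34 ligands. In 4 of the 89 the groups did not overlap, all higher with PM2.5: CSRP1, LASP1, and, not above background, TNS2 and MADCAM1. Over all genes the groups did not overlap in 5.31%, with 438 of 22465 higher and 756 lower. The count of both directions together stood near that share, and nothing is read from the direction of the 4 genes. TNS2 and MADCAM1 were picked out after their values were seen.

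The actin-associated LIM protein CSRP1 read 13.33 ± 0.078 with PM2.5 and 13.14 ± 0.061 in controls (SD, n = 3 each), a log2 difference of 0.19, and LASP1, another LIM protein of actin fibres, 11.15 ± 0.085 with PM2.5 and 10.82 ± 0.32 in controls (log2 0.33). Neither passed (limma adjusted p = 1 each). The other 2 lowest p among higher genes were those of the cross-linker ACTN4 (log2 0.21) and the tetraspanin CD81 (log2 0.13). In the lower direction they were VASP (log2 -0.12) and ENAH (log2 -0.17), which elongate actin filaments, PPFIBP1 (log2 -0.12) and the actin-bundling PALLD (log2 -0.11). ENAH, PPFIBP1 and PALLD were lower with PM2.5 within both array sets, like ITGB1. Their log2 differences with the set as a block were -0.39, -0.35 and -0.33 (limma adjusted p = 0.862 each). In the low set only 1070 of all 4150 genes above background were higher with PM2.5, so a lower value there was common.

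Matrix ligands of these integrins ranged widely. FN1, fibronectin, the ligand of the ITGA5 and ITGB1 pair, read 9.51 ± 0.65 with PM2.5 and 8.84 ± 1.46 in controls (SD, n = 3 each). The log2 difference was 0.67 (SE 0.76), and 0.74 in the high and -0.55 in the low set. THBS1, the matricellular protein thrombospondin 1, read 9.54 ± 0.91 with PM2.5 and 9.75 ± 1.45 in controls (SD, n = 3 each), and its log2 difference was -0.44 in the high and -1.30 in the low set. The log2 difference was 0.34 (SE 0.52) for the collagen gene COL1A1 and 0.36 (SE 0.53) for the cross-linker gene ACTN1. VTN, vitronectin, was not analysed here.

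Between the array sets, 13 of the 89 genes passed limma's test as higher on low spike-in arrays and 0 as lower, against 5.40% and 2.65% of all genes. Of the 37 above background 12 passed as higher, where 20.4% of all genes above background did. Of the 55 focal adhesion genes 9 passed, and of the 34 ligands 4, THBS1, NID1, LAMB1 and COL1A1. The lowest adjusted p were those of the tetraspanin CD9 (log2 0.75, adjusted p = 0.0276), ENAH (0.67, 0.0294), THBS1 (1.99, 0.0308) and the adaptor GIT2 (1.07, 0.0313). None of the genes with the lowest p in the lower direction passed, and these were GIT1 (log2 -0.30), SHARPIN (-0.10), CSRP1 (-0.09) and VASP (-0.14). Marker lists were set beside them. The mean log2 level of 11 fibroblast markers was 5.61 to 5.66 on low and 5.34 to 5.49 on high arrays. COL1A1, COL1A2 and PDGFRB were higher on low arrays (log2 1.20, 1.20 and 0.67), while 6 markers not above background (DCN, FAP, LUM, POSTN, S100A4 and THY1) lay lower, by log2 differences of -0.11 to -0.20, and the median over the 11 was -0.11. The mean of 9 leukocyte markers was 4.64 to 4.71 on low and 4.56 to 4.62 on high arrays, that of 8 endothelial markers, all within background, 3.93 to 4.02 on low and 4.03 to 4.05 on high arrays, and that of 9 epithelial markers 6.28 to 6.35 on low and 6.43 to 6.49 on high arrays. Of the leukocyte markers PTPRC, CD3E and CD14 were not above background, and CD68 alone was, at 9.58 to 10.35 on low and 8.26 to 9.27 on high arrays. The means of 11 cardiomyocyte markers overlapped, at 4.42 to 4.49 on low and 4.42 to 4.45 on high arrays. So did those of 6 platelet markers, at 3.83 to 3.88 on low and 3.85 to 3.93 on high arrays. MYL2, the cardiomyocyte marker above background, was higher on low arrays (log2 0.48, limma adjusted p = 0.192). The part of these lists in the result was not tested.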

How the data were processed

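Biotin-labelled RNA of 6 AC16 samples was measured on Affymetrix arrays. The deposited values are log2 expression made by the authors with RMA, per the submitters' processing notes, which corrects background, puts arrays on a common distribution and summarises probes. For RMA's version and the build, the sources used here say nothing. Values ran from 2.73 to 19.9, and 0 of the 38 genes reached that highest value. Whether single genes were capped below it, as the repeated top value of ILK might be, was not tested. The marker VIM and the focal adhesion gene RHOA also repeated top values, 11.45 and 14.85, on several arrays.

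Of 67528 transcript clusters, 23781 had 1 symbol in the platform annotation, 1543 several (left out) and 42204 none. The cluster with the highest mean stood for a gene, which gave 22465 genes, and 37 of the 38 symbols matched RefSeq through the gene identifier. Differences were fitted in limma 3.58.1 under R 4.3.3 (lmFit and trended eBayes, two-sided tests, adjusted by Benjamini-Hochberg over all 22465 genes at 0.05), with no filter or block. The fit was tested on simulated data. Samples were grouped by title. The array sets were split at the widest gap in spike-in mean.

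Members, lists and alternatives were chosen with earlier results of these data known. Every member may be named. Of the other adhesion genes the text names the 4 lowest p per direction above background, FN1, VTN, THBS1, COL1A1 and ACTN1, and of marker lists the genes above background. Other genes named were picked after their values were seen. Alternatives were other blocks, scalings, variance priors, array weights, filters, cluster means and leaving out each array. The interaction with the array set and the differences within sets were added after the data were seen.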

Additional observations from a re-analysis of the deposited data

How the results depend on the processing

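The count of genes past limma's test of PM2.5 against control was 0 under all 16 alternatives, over all genes, over the 38 integrin and focal adhesion genes and over the 89 related genes. Of 571 values of single members, 571 stayed on their side of the threshold and 68 changed sign. The lowest adjusted p of a member was 0.107, with array weights. The median difference of the 38 genes, 0.0025, became 0.030 with array weights and 0.22 among the 12 genes above background, and lay between -0.0016 and 0.030 with 1 array left out. The count of members whose groups did not overlap, 0, became 1 after a further quantile normalization and lay between 1 and 10 with 1 array left out, where smaller groups overlap less by construction. The count above background, 12, was 19 with each array's own threshold and 11 when all arrays had to exceed it. The cause of the other changes was not tested.

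Of low minus high spike-in calls (3 members), 0 were left with the replicate block beside treatment and between 0 and 1 with 1 array left out. Over all genes 0 calls were left with that block. With 1 array left out between 0 and 605 higher and between 1 and 254 lower were left. Of 392 such values of single members, 23 lost a call, 5 gained one and 0 reversed. Deviations from the group means, over 4150 genes above background, correlated at 0.78, -0.65 and 0.77 for replicates 1 to 3. PM2.5 replicate 1 correlated with control replicate 2 at 0.83, and PM2.5 replicate 2 with control replicate 3 at 0.79. The signs followed the array sets, so these values cannot show whether replicate numbers paired the arrays. With the replicate block 0 genes were called in the PM2.5 comparison, members included.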
